A study of Arabidopsis thaliana with 15 samples.

Results

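PHV, LHW, BBM and LBD16 are 4 transcription factor genes. PHV and LHW act in the patterning of the root vasculature, BBM in root stem cells, and LBD16 in lateral root initiation. The 4 genes were chosen by name, with earlier results of these data known. Each was measured by 1 probe set, so that 4 of the 22810 probe sets on the Affymetrix array are described. All 4 passed the filter on dim probe sets, as did 16126 probe sets in all. The arrays came from Arabidopsis thaliana seedlings of ecotype Columbia that grew for 5 days on full medium and then spent 3 hours on medium without sulfur. Roots were then turned into protoplasts, and 5 cell populations were sorted by a fluorescent marker line, with 3 arrays each. Pet111 marked the columella, the core of the root cap, and pWOL::GFP the stele, the central cylinder. The cortex was sorted by pCOR::GFP. Of the other lines, pWER::GFP takes in both epidermis and lateral root cap, and pSCR::GFP takes in both endodermis and quiescent center. Every population had the same sulfur-free treatment, so the values compare cell populations and not media; seedlings kept on full medium were not analysed here.

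The patterning of the root vasculature rests on signals between its cell layers. PHV (PHAVOLUTA, AT1G30490) encodes a class III homeodomain leucine zipper protein. Messenger RNAs of this class are cut by the microRNAs miR165 and miR166, which move from the endodermis into the stele, and the remaining gradient helps to set the kinds of xylem cells. LHW (LONESOME HIGHWAY, AT2G27230) encodes a basic helix-loop-helix protein that pairs with TMO5 to promote cytokinin synthesis and the divisions that widen the vascular cylinder. BBM (BABY BOOM, AT5G17430) belongs to the PLETHORA group of AP2 proteins, which maintain the root stem cell niche, and can induce embryos when overexpressed. LBD16 (AT2G42430) encodes a LOB domain protein that acts downstream of auxin response factors when lateral roots are initiated and when callus forms.

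Values are given first as deposited signal, the linear brightness of a probe set after scaling of each array. Levels and differences are on the scale log2(signal + 16) after quantile normalization, which understates differences between dim values. Median signal per array ran from 46.1 to 80.9. Of 15 arrays, 12 were most alike to another array of their own population. The array labelled epidermis replicate 2 was most alike to stele replicate 2 (r = 0.973 over the tested probe sets, which do not count as replicates). In turn, stele replicate 2 was most alike to that array, ahead of stele replicate 3 (r = 0.9615). The array labelled stele replicate 1 was most alike to epidermis replicate 3 (r = 0.965). Median signal was 80.9 on the library labelled epidermis replicate 2, against 57.3 and 55.6 on epidermis replicates 1 and 3, and 56.5 on the library labelled stele replicate 1, against 77.3 and 76.3 on stele replicates 2 and 3. Both arrays are therefore shown apart, and each result is given on all 15 arrays as labelled and on the 13 others, where the epidermis and the stele have 2 arrays each.

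The sorted identities could be checked in part, through 2 of 7 epidermis markers, 2 of 4 cortex markers and 2 of 13 endodermis markers. EXPA7 and EXPA18, expansin genes of root hairs, were higher in the epidermis on the 13 arrays (log2 differences from the mean of the other 4 populations 2.04 and 2.28). The cortex genes AT1G62510 and NPF6.4 were higher in the cortex (5.71 and 3.97), and SGN3, a receptor kinase gene of the Casparian strip, in the endodermis (4.67). AGL42, the other endodermis marker, was higher there by only 1.14, and its cortex level was close (cortex minus endodermis -0.33). Its signal was 37.6 and 1.33 on stele replicates 2 and 3. SGN3 was also higher in the cortex (2.72), and both cortex genes in the endodermis (1.58 and 1.34). The 10 stele markers and the 5 columella markers are unnamed on the array here, so those labels were not checked by markers. The epidermis markers were not at 0 on the stele arrays. EXPA7 had a signal of 378 and 49.1 on stele replicates 2 and 3, against 242 and 369 on epidermis replicates 1 and 3, and EXPA18 had 291 and 53.0 against 333 and 469. Their part in the stele values was not tested, but stele differences are also given without stele replicate 2. The same markers did not all place the arrays in doubt alike. On the library labelled epidermis replicate 2, EXPA7 (342) and EXPA18 (390) lay between epidermis replicates 1 and 3. EXPA7 also lay between stele replicates 2 and 3 (378 and 49.1), while EXPA18 lay above both (291 and 53.0), as its label has it. SGN3 (487) lay above stele replicates 2 and 3 (232 and 102) and far above epidermis replicates 1 and 3 (31.3 and 33.2). On the library labelled stele replicate 1, SGN3 (18.5) was nearer to the epidermis arrays, EXPA18 (348) lay between epidermis replicates 1 and 3, and EXPA7 (241) lay between stele replicates 2 and 3, just under epidermis replicate 1.

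PHV was highest in the stele and lowest in the cortex once both arrays in doubt were set apart. In the stele its signal was 383 and 552 on replicates 2 and 3, and 6.46 on the library labelled stele replicate 1. In the columella it was 149.9, 121 and 159.6, and in the endodermis 49.9, 98.6 and 64.7. The columella and endodermis ranges did not overlap, and the columella stood above the endodermis on every array. In the epidermis PHV was at 28.5 and 26.0 on replicates 1 and 3, and at 540.5 on the library labelled replicate 2. The cortex arrays had 3.28, 2.099 and 16.8, which placed PHV above only 8.94% to 28.9% of the probe sets of those arrays. These cortex values are in the dimmest range of the arrays, and their order is not resolved.

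LHW was present at moderate to high signal in every population, and again highest in the stele. Signal was 995 and 1357 on stele replicates 2 and 3, and 295 on the library labelled stele replicate 1. In the endodermis it was 363, 699 and 488. The epidermis arrays had 365 and 198 on replicates 1 and 3, and the library labelled replicate 2 had 936. Values of 169, 264 and 249 in the columella overlapped with those of epidermis replicates 1 and 3. In the cortex LHW was at 63.8, 141 and 115, below every array of the other 4 populations. LHW lay above 54.8% to 94.5% of probe sets on all 15 arrays, so that none of its values was near the bottom of the scale.

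BBM was dimmer, and was near the bottom of the scale in the cortex and on epidermis replicates 1 and 3. In the stele its signal was 218 and 222 on replicates 2 and 3, which were close to each other, and 21.2 on the library labelled replicate 1. The endodermis had 38.3, 102 and 53.3, and the columella 63.98, 55.5 and 44.6. These ranges overlapped. Epidermis replicates 1 and 3 had 4.01 and 5.11, while the library labelled epidermis replicate 2 had 297, the highest BBM signal of the 15 arrays. Cortex values were 10.7, 6.72 and 2.83 and overlapped with those of epidermis replicates 1 and 3.

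LBD16 had another order, with high values in the endodermis, the cortex and the stele. Endodermis signal was 255, 154 and 295, and cortex signal was 144, 159 and 195. Stele replicates 2 and 3 had 186 and 155, within the range of the endodermis arrays, and the library labelled stele replicate 1 had 20.2. The columella was lower, at 41.1, 51.5 and 31.5. Epidermis replicates 1 and 3 were lowest, at 2.77 and 9.93, whereas the library labelled epidermis replicate 2 had 307, the highest of the 15 arrays. On the 13 arrays, LBD16 in the columella and the epidermis lay below every array of the other 3 populations.

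**Figure D1:**
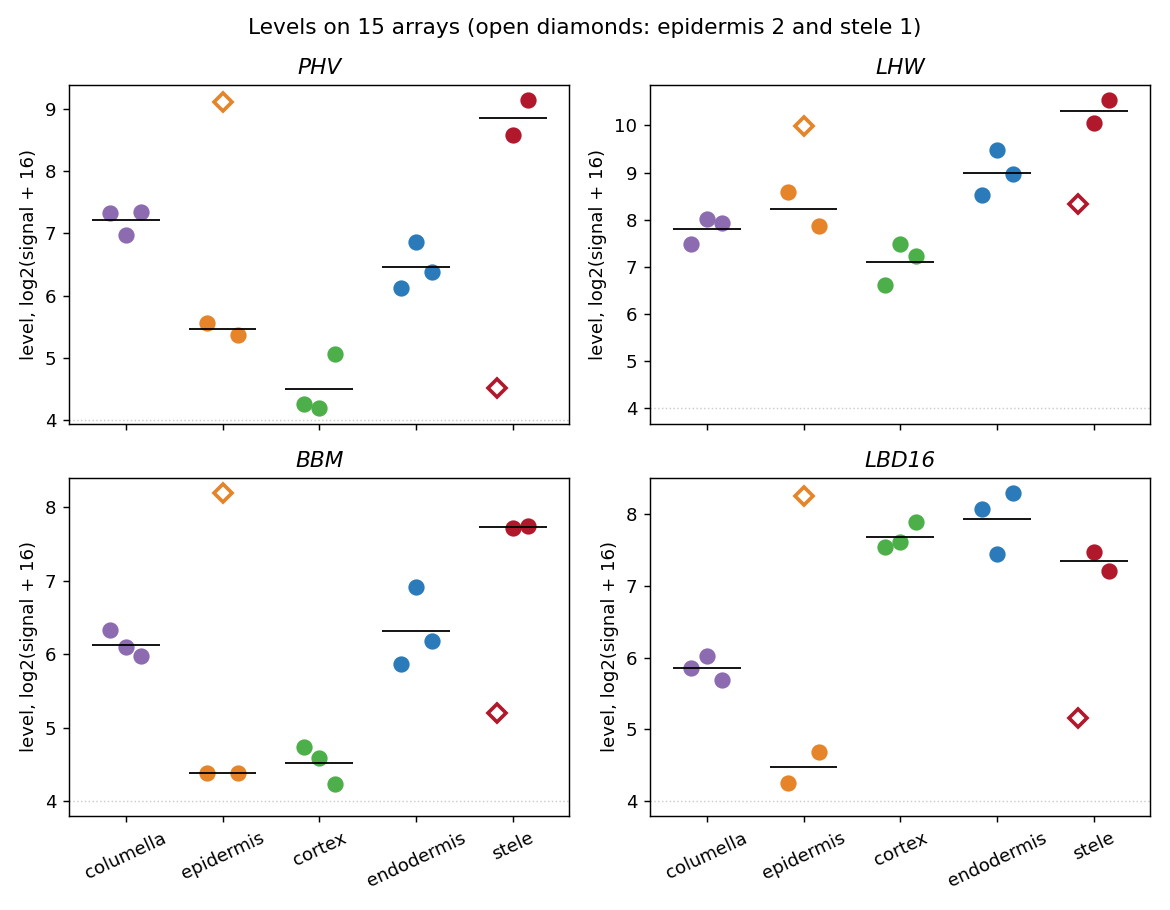
Level of each gene, as log2(signal + 16) after quantile normalization, on each of the 15 arrays by population (dots from left to right are replicates 1 to 3). Open diamonds are the libraries labelled epidermis replicate 2 and stele replicate 1, and black lines are means of the other arrays; PHV, LHW and BBM are highest on stele replicates 2 and 3 among the filled dots, and LBD16 is high in the cortex, endodermis and stele.

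How far the arrays in doubt lay from both populations was measured for each gene. For PHV, the library labelled epidermis replicate 2 was 3.65 log2 above the mean of epidermis replicates 1 and 3 and 0.25 above that of stele replicates 2 and 3. For LHW these distances were 1.75 and -0.31, and for BBM 3.81 and 0.46. LBD16 was 3.78 above the epidermis mean and 0.91 above the stele mean, the widest gap to the stele among the 4 genes. The library labelled stele replicate 1 lay 4.34 below the stele mean for PHV (difference -4.34), and -0.94 from the epidermis mean. The distances of stele replicate 1 from the stele and epidermis means were -1.97 and 0.09 for LHW, -2.53 and 0.82 for BBM, and -2.18 and 0.70 for LBD16. All 4 genes were therefore nearer to the other population on both arrays. Across the 16126 tested probe sets the same was true of 73.5% on the library labelled epidermis replicate 2 and 67.2% on the library labelled stele replicate 1. Among the 895 probe sets whose stele and epidermis means differed by at least 2 log2, the shares were 98.7% and 98.1%, and all 4 genes are among these 895.

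**Figure D2:**
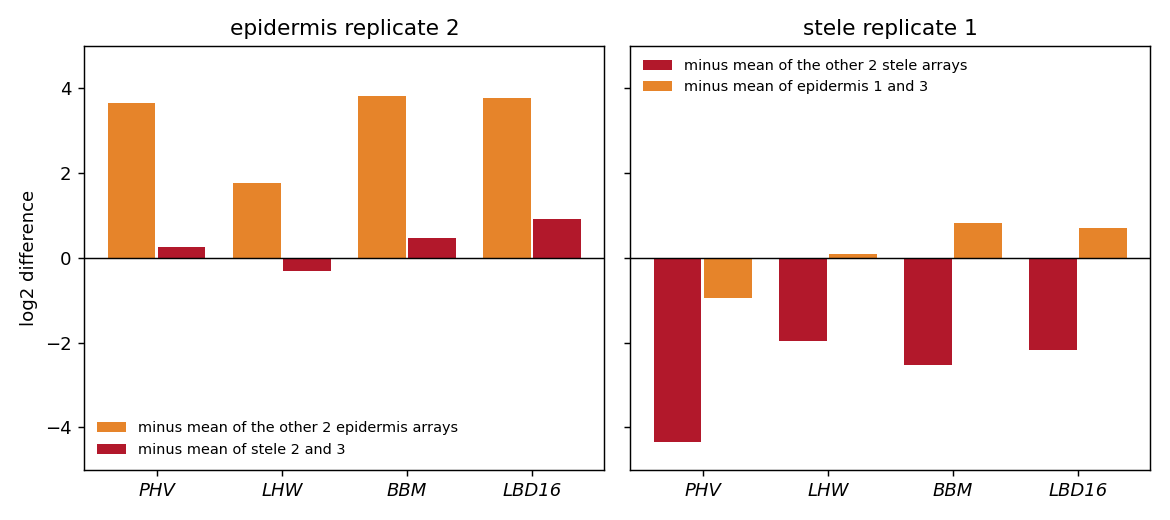
Log2 difference of the library labelled epidermis replicate 2 (left) and of that labelled stele replicate 1 (right) from the mean of the 2 other arrays of its own population and from the mean of the 2 arrays of the other population. Each of the 4 genes on the x axis has the shorter bar toward the other population, for PHV 0.25 against 3.65 on the left.

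Whether the genes differed among the 5 populations was tested with limma's moderated F test, fitted on all tested probe sets with Benjamini-Hochberg adjustment. As labelled, only LHW passed (adjusted p = 0.00667), with PHV at an adjusted p of 0.115, BBM at 0.148 and LBD16 at 0.0642. That is 1 of 4 genes, against 66.1% of tested probe sets. On the 13 arrays all 4 genes passed by limma, with adjusted p of 1.6e-08 for PHV, 1.1e-06 for LHW, 2.09e-07 for BBM and 1.81e-08 for LBD16. There 83.1% of the 15911 tested probe sets passed, so passing this test did not set the 4 genes apart. Leaving out a single array was enough for the other 3 genes to pass. Without the library labelled stele replicate 1, limma's adjusted p was 0.00259 for PHV, 0.0279 for BBM and 0.0275 for LBD16. Without the library labelled epidermis replicate 2 it was 0.0229, 0.00238 and 0.000145 in turn.

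Within the populations as labelled, the spread of the epidermis and the stele was wide. The SD of log2 levels was 2.11 in the epidermis and 2.52 in the stele for PHV, against 0.21 in the columella. For BBM it was 2.20 and 1.46, against 0.18 in the columella, and for LBD16 2.19 and 1.26, against 0.17. LHW had an SD of 1.08 and 1.16, against 0.29 in the columella. Without both arrays the epidermis SD, from 2 arrays, was 0.13 for PHV, 0.52 for LHW, 0.003 for BBM and 0.295 for LBD16. The BBM values there are at the bottom of the scale, where the added 16 compresses differences. The stele SD, also from 2 arrays, was 0.39 for PHV, 0.33 for LHW, 0.02 for BBM and 0.20 for LBD16.

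Each population was then set against the mean of the other 4. A gene counted as called where limma's adjusted p was under 0.05 and the difference was 1 log2 or more, up or down. These differences cancel out over the 5 populations, so that high values in some force negative values in others.

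In the stele, 3 of the 4 genes were called higher on the 13 arrays, against 12.9% of tested probe sets called higher there. PHV was higher by 2.97 ± 0.26 log2 (SE, limma adjusted p = 2.89e-07), or 7.82-fold on the scale with 16 added. The size depends on the pseudocount, at 3.65 log2 with 1 and 2.16 with 64. LHW was higher by 2.27 ± 0.27 (adjusted p = 5.79e-06), or 4.82-fold (2.35 log2 with a pseudocount of 1 and 2.05 with 64). BBM was higher by 2.41 ± 0.26 (adjusted p = 2.14e-06), or 5.30-fold (3.35 log2 with a pseudocount of 1 and 1.49 with 64). Without stele replicate 2, which carried the epidermis markers, these differences were 3.26, 2.52 and 2.42 and all were still called, with the lone stele array assumed to vary like the other groups. LBD16 had a difference of 0.86 and was under the log2 threshold (adjusted p = 0.00627). It was called on deposited scaling (1.11) and when the pseudocount was 1 (1.32), but the share of all probe sets called under these settings is not given here. On the 15 arrays, LHW alone was called (1.46 ± 0.44, SE), where 6.50% of probe sets were called higher; the call was lost without stele replicate 2 or 3 (adjusted p = 0.128 and 0.181). PHV (1.199) and BBM (1.23) did not pass as labelled.

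In the cortex, PHV, LHW and BBM were called lower on both sets of arrays. Of tested probe sets, 14.6% were called lower there on the 15 arrays and 16.4% on the 13. Without both arrays in doubt the differences were -2.49 log2 for PHV, -1.74 for LHW and -1.62 for BBM (limma adjusted p from 7.29e-08 to 9.32e-06). With a pseudocount of 64 the BBM difference was under the log2 threshold on the 13 arrays (-0.85). As labelled, the differences were -2.44 for PHV, -1.71 for LHW and -1.73 for BBM, close to those without both arrays. The SE was smaller on the 13 arrays, at 0.23 against 0.82 for PHV. As labelled, the PHV call was lost without cortex replicate 1 or 2 (adjusted p = 0.0859 and 0.0919). The BBM call (adjusted p = 0.0459) was lost without any 1 of 11 arrays and with no filter on dim probe sets (0.0561). Against these 3 genes, LBD16 was called higher in the cortex on the 13 arrays, by 1.29 ± 0.20 (SE, limma adjusted p = 2.98e-05), where 14.2% of probe sets were called higher. With a pseudocount of 64 it was 0.79 and no longer called.

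In the epidermis with the lateral root cap, PHV, BBM and LBD16 were called lower on the 13 arrays, against 12.4% of tested probe sets. LBD16 had a difference of -2.73 ± 0.23 log2 (SE, limma adjusted p = 1.4e-07), whose size is set by the pseudocount (-4.30 with 1 and -1.52 with 64), as its epidermis signals are near the bottom of the scale. BBM had a difference of -1.78 ± 0.26 and PHV of -1.31 ± 0.26. The BBM and PHV calls were lost with a pseudocount of 64 (-0.91 and -0.95). LHW did not pass (-0.32, adjusted p = 0.353). As labelled, LBD16 (-1.29, limma adjusted p = 0.143) and BBM (-0.31, 0.769) were not called in the epidermis. PHV and LHW had positive differences there (0.28 and 0.43) and were not called either. The share of all probe sets called there as labelled is not given here, so this is not read as particular to the genes. Without the library labelled epidermis replicate 2 alone, LBD16 (-2.55) and BBM (-1.57) were called lower.

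The endodermis and the columella held fewer calls. In the endodermis with the quiescent center, LBD16 was called higher on the 13 arrays by 1.61 ± 0.20 log2 (SE, limma adjusted p = 6.9e-06), against 9.18% of probe sets. BBM (0.62) and LHW (0.64) had adjusted p of 0.0421 and 0.0442 and were under the log2 threshold, although BBM was called with a pseudocount of 1 (1.28). PHV was at -0.06. In the columella, LBD16 was called lower (-1.02 ± 0.20, SE), against 12.8% of probe sets. That difference is close to the threshold, and it was smaller than 1 in size without any 1 of 6 arrays (-0.93 to -0.998) and with a pseudocount of 1 (-0.94) or 64 (-0.79). PHV was at 0.90 with an adjusted p of 0.00295, also close to the threshold, and it was called without columella replicate 2 (1.01), on deposited scaling (1.0005) and when the pseudocount was 1 (1.44). LHW was at -0.85 in the columella, and BBM at 0.38, or 1.007 and called with a pseudocount of 1. As labelled, LBD16 was not called in the endodermis (1.47, limma adjusted p = 0.122) or the columella (-1.14, 0.171), and neither were the other genes. The share of all probe sets called there as labelled is not given here, so this is not read as particular to the genes.

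**Figure D3:**
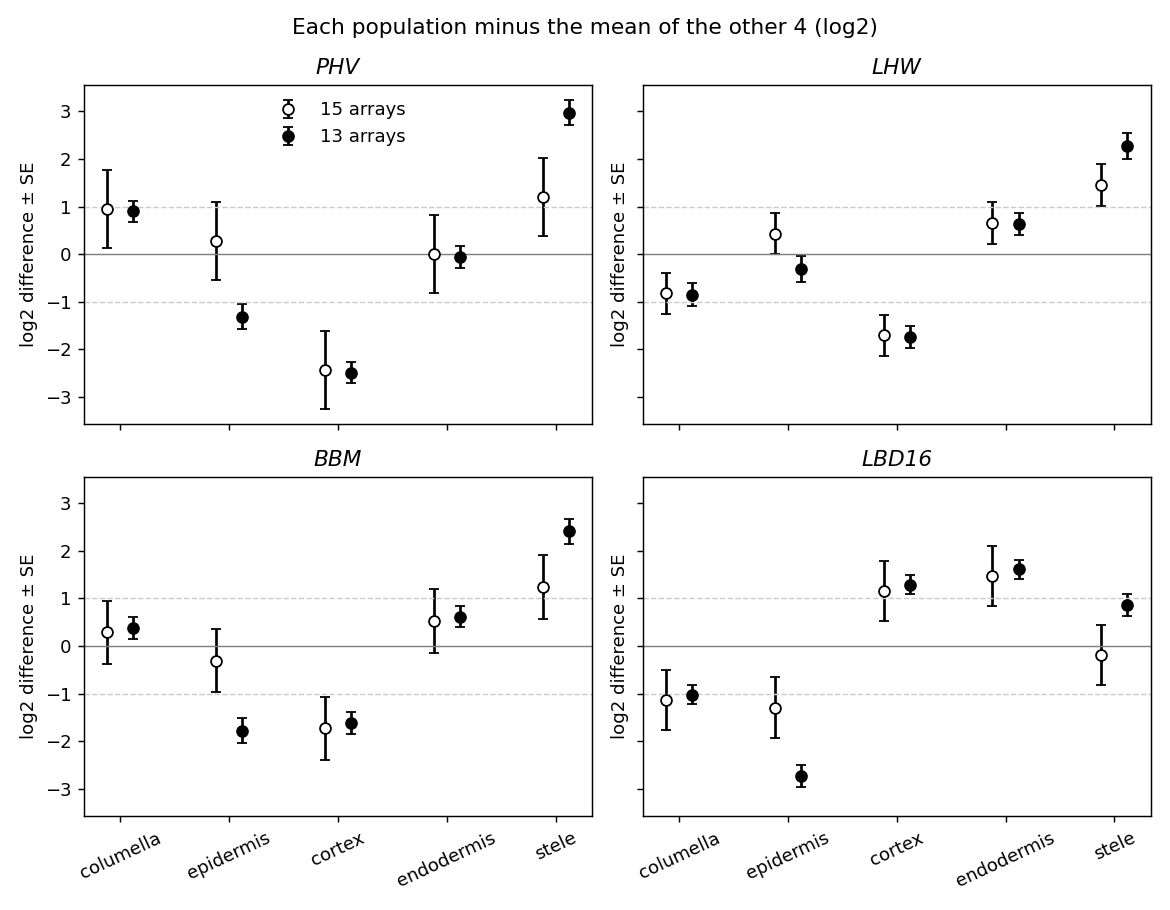
Log2 difference of each population from the mean of the other 4, with its standard error, on the 15 arrays as labelled (open circles) and on the 13 arrays without both arrays in doubt (filled circles). Dashed lines mark the log2 threshold of 1; in the cortex the 2 circles of PHV lie at -2.44 and -2.49, while in the epidermis they lie at 0.28 and -1.31.

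The order of the populations was examined with limma tests of all 10 pairs, each adjusted over all tested probe sets. Without both arrays the order for PHV was stele, columella, endodermis, epidermis and cortex. The stele exceeded the columella by 1.65 ± 0.31 log2 (SE, adjusted p = 0.000299). The next 3 steps were 0.77, 0.997 and 0.94 log2, with adjusted p of 0.0322, 0.0142 and 0.0158, each under the log2 threshold. The step from endodermis to epidermis reached the threshold without any 1 of 6 arrays. Cortex minus stele was -4.37 log2 (-6.18 with a pseudocount of 1 and -2.85 with 64), so no fold is given against these dim cortex values.

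For LHW the order was stele, endodermis, epidermis, columella and cortex. The stele exceeded the endodermis by 1.31 ± 0.32 log2 (SE, adjusted p = 0.00387), although this call was lost without stele replicate 3 (adjusted p = 0.0572). Endodermis and epidermis (0.76, adjusted p = 0.061) and epidermis and columella (0.42, adjusted p = 0.298) did not differ beyond their spread, and columella and cortex differed by 0.71 (adjusted p = 0.0441). From stele to cortex the ratio was 9.23-fold.

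BBM was ordered as stele, endodermis, columella, cortex and epidermis, in 3 tiers. The stele exceeded the endodermis by 1.43 ± 0.31 log2 (SE, adjusted p = 0.00143). Endodermis and columella did not differ beyond their spread (0.19, adjusted p = 0.617), and neither did cortex and epidermis (0.13, adjusted p = 0.738). The step between these pairs, from columella to cortex, was 1.60 ± 0.28 (adjusted p = 9.88e-05), or 0.72 and under the threshold with a pseudocount of 64.

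The order for LBD16 was endodermis, cortex, stele, columella and epidermis. Neighbouring steps among the first 3 populations did not pass (0.25 with an adjusted p of 0.454, and 0.35 with 0.297), and neither did endodermis against stele (0.60, adjusted p = 0.0929). The stele then exceeded the columella by 1.50 ± 0.27 log2 (SE, adjusted p = 0.000233), and the columella exceeded the epidermis by 1.37 ± 0.27 (adjusted p = 0.000623). With a pseudocount of 64 both steps were under the threshold (columella minus stele -0.99, columella minus epidermis 0.58). Epidermis minus endodermis was -3.47 log2, or -5.15 with a pseudocount of 1 and -2.06 with 64. As labelled, no step between neighbours was called for any of the 4 genes (adjusted p from 0.171 to 0.92).

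Counted by pair on the 13 arrays, all 4 genes were called between columella and stele, where 34.7% of tested probe sets were called in either direction, and between epidermis and stele, where 21.9% were. In 5 pairs, 3 genes were called. PHV, BBM and LBD16 were called between columella and epidermis (31.4% of probe sets) and between columella and cortex (36.8%). PHV, LHW and BBM were called between cortex and endodermis (21.6%), between cortex and stele (41.9%) and between endodermis and stele (26.7%). In the other 3 pairs, 2 genes were called. They were LHW and LBD16 between columella and endodermis (28.3%) and between epidermis and cortex (40.5%), and BBM and LBD16 between epidermis and endodermis (31.7%). Calls of dim genes were lost with a pseudocount of 64 between cortex and endodermis for PHV (-0.93) and BBM (-0.85), which leaves LHW there. BBM was then also lost between epidermis and endodermis (-0.90) and between columella and epidermis (0.77). Of the LHW calls, that between columella and endodermis was lost without endodermis replicate 2 (adjusted p = 0.0156 at a difference of -0.94), and that between epidermis and cortex without epidermis replicate 1 (0.129) or cortex replicate 1 (0.88 log2), or with a pseudocount of 64 (0.91 log2). Array weights also ended the LHW call between columella and endodermis (-0.94).

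As labelled, fewer pairs were called. PHV, LHW and BBM were called between cortex and stele, where 34.4% of probe sets were. PHV was called between columella and cortex (34.1%). LHW was called between columella and stele (26.0%), between epidermis and cortex (34.6%) and between cortex and endodermis (17.2%). LBD16 was called in no pair as labelled. Between epidermis and stele, the pair that both arrays in doubt belong to, limma called 0 of the 16126 tested probe sets as labelled (0%), so the lack of calls there is not particular to the 4 genes. At an unadjusted p under 0.05 there were 840 (5.21%), with none of the 4 among them.

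A sign of RNA quality moved with some of these values. The ratio of 3' to 5' signal of the GAPDH control probe sets, which rises as labelled RNA gets shorter, was 13.6 and 12.8 on stele replicates 2 and 3 and 15.2 on the library labelled epidermis replicate 2. It was 7.03 and 10.2 on epidermis replicates 1 and 3, 9.20 on the library labelled stele replicate 1, 6.87 to 9.635 in the cortex and 8.69 to 12.95 in the columella. Within the endodermis, replicate 2 had a ratio of 11.3, against 4.97 and 5.44. That array also had the highest endodermis signal of PHV, LHW and BBM (98.6, 699 and 102) and the lowest of LBD16 (154). The same ratio of the actin control probe sets, from 49.0 to 310.5 over the arrays, did not follow this split throughout. It was 122.9 and 310.5 on stele replicates 2 and 3 and 144 on the library labelled epidermis replicate 2, but also 121.9 on epidermis replicate 1 and 130 on cortex replicate 2. The part of RNA quality in these differences was not tested. In sorted populations, fewer cells that express a gene and less RNA per cell cannot be told apart.

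How alike the 4 genes were to each other is described by Pearson's r of log2 levels, with no test, since all points share arrays, amplification and scaling. PHV and BBM had an r of 0.92 over 15 arrays and 0.91 over the 13. LHW had an r of 0.78 with PHV and 0.82 with BBM over 15 arrays. LBD16 stood apart, with an r of 0.21 with PHV, 0.24 with LHW and 0.41 with BBM. Over the 13 arrays these were -0.02, 0.15 and 0.29.

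The genes of most similar pattern were then taken from the 8937 other tested probe sets with 1 gene symbol, as the 5 of highest r over the 15 arrays for each gene. For PHV they were AT5G48480, AT4G24780, AT2G40480, TBL36 of a family of wall polysaccharide acetylation genes, and the subtilase gene SBTI1.1, with r from 0.941 to 0.949. BBM shared AT5G48480 (r = 0.958) and AT2G40480 (0.936) with PHV, and was also like AT3G04560, AT5G41620 and ATLP-1, a thaumatin-like protein gene (0.938 to 0.941). For LHW they were AT3G12760, AT1G29980, AT3G15720, AT5G33300 and AT1G30440, with r from 0.937 to 0.954. LBD16 was most like AT2G45820, with the highest r of all, 0.983 over 15 arrays and 0.988 over 13. It was followed by AT2G44300 (0.968), BIM1, a basic helix-loop-helix gene of brassinosteroid signalling (0.960), PMEAMT, a phosphoethanolamine methyltransferase gene (0.952), and the tetraspanin gene TET6 (0.950). Over the 13 arrays each of these 20 values was at least 0.93. Such values were rare, with 0.302% of the probe sets above an r of 0.9 for PHV, 0.313% for LHW, 0.213% for BBM and 0.313% for LBD16 over 15 arrays, and 0.556%, 0.295%, 0.25% and 0.602% in turn over the 13.

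**Figure D4:**
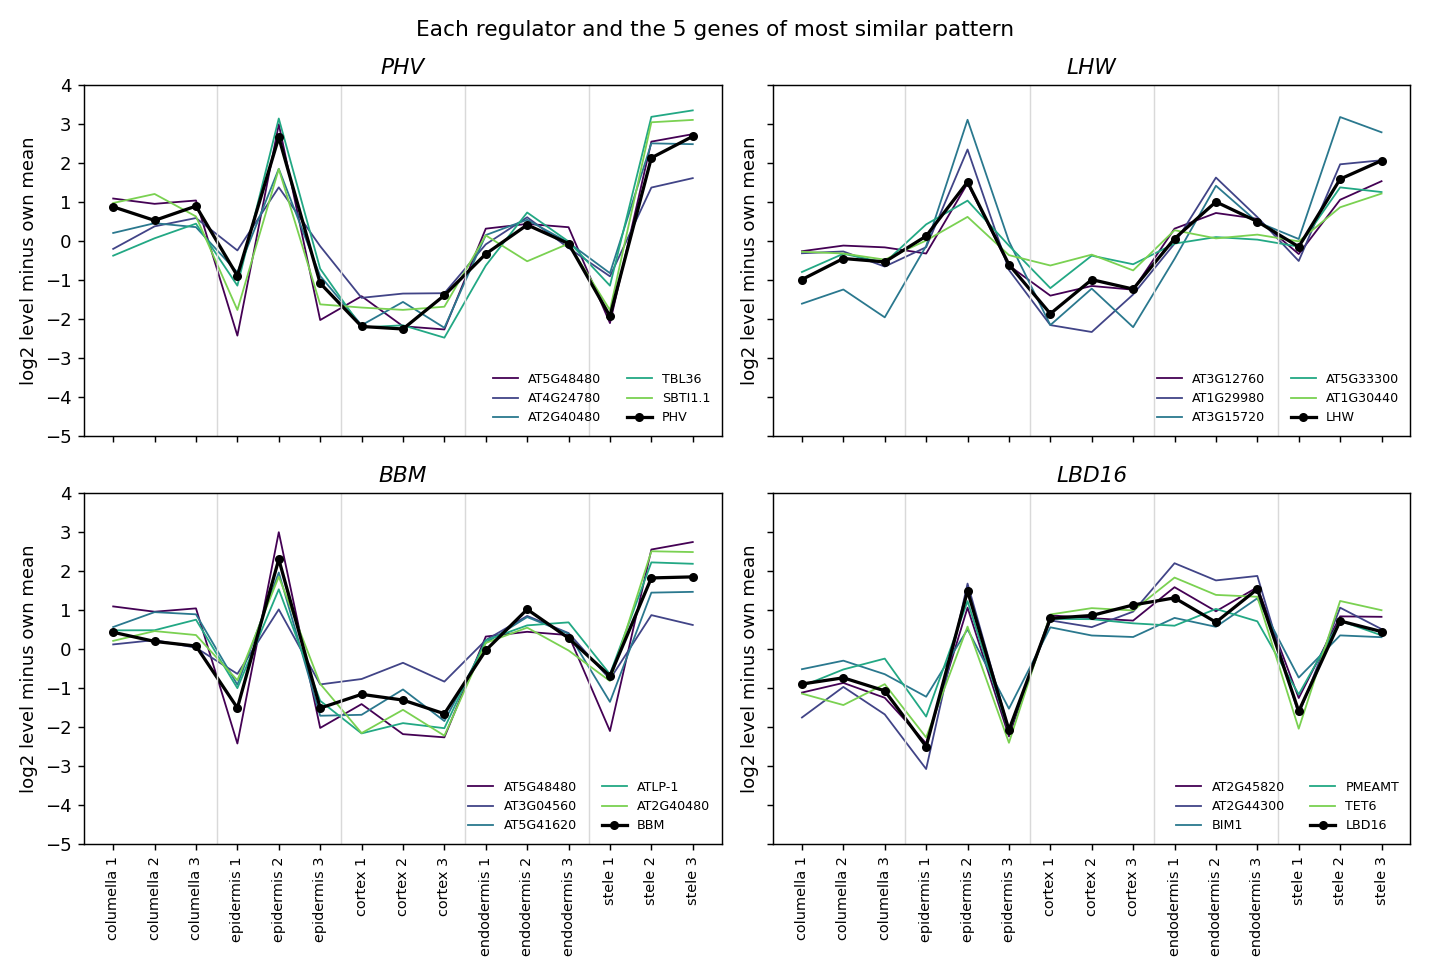
Log2 level minus its own mean over the 15 arrays (y axis) for each regulator (black) and the 5 genes with the highest r to it (coloured), by array (x axis, with vertical lines between populations). The peak at epidermis 2 and the dip at stele 1 occur in the regulators and the genes most like them, which were chosen for this likeness.

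Other genes of the same pathways had few named probe sets here. Of 86 genes in 8 lists on the class III homeodomain group, LHW and its partners, the PLETHORA group, LBD genes, stem cells, xylem and auxin transport, 9 had one, the 4 regulators included. LBD29, a relative of LBD16 that acts with it in lateral root initiation, did not pass the filter, with a signal of 1.26 to 18.7 on all 15 arrays. PUCHI, an AP2 gene of lateral root primordia, did not pass either, with 4.12 to 57.6, the highest on the library labelled epidermis replicate 2. The other 3 genes all belong to the stem cell list and all passed the F test on both sets of arrays, where 66.1% and 83.1% of all tested probe sets passed.

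CLE40 and ACR4, which encode a signal peptide and a receptor kinase that together restrain stem cells of the columella, were higher in the columella. CLE40 had a signal of 94.2, 101 and 84.0 there, and 2.07 to 41.0 on the other 12 arrays. Its columella difference from the other 4 populations was 1.66 ± 0.27 log2 as labelled (SE, limma adjusted p = 0.000229) and 1.62 on the 13 arrays. ACR4 had 62.6, 105 and 131 in the columella, and 1.29 to 49.7 elsewhere, and was higher there by 1.99 ± 0.32 (SE, adjusted p = 0.000192) and lower in the cortex (-1.25 ± 0.32, adjusted p = 0.00522). With a pseudocount of 64, the CLE40 difference (0.89) and the cortex difference of ACR4 (-0.53) were under the log2 threshold. AGL42, a MADS-box gene active in the quiescent center, had a signal of 49.0, 35.3 and 50.2 in the endodermis sample and 22.9, 23.5 and 42.2 in the cortex, and these ranges overlapped. Its endodermis difference was 1.13 as labelled and 1.14 on the 13 arrays, but leaving out endodermis replicate 1 or 3 ended the call as labelled (adjusted p of 0.103 and 0.111). On 13 arrays, leaving out stele replicate 3 ended it (0.96 log2). With a pseudocount of 64 the difference was 0.50 on both sets of arrays. A pseudocount of 1 also ended the call as labelled (2.33 log2, limma adjusted p = 0.0739). Stele replicates 2 and 3 differed for AGL42, at 37.6 and 1.33.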

How the data were processed

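Per the labels' protocols, biotin-labelled RNA was made from sorted root protoplasts by 2 rounds of amplification. The authors deposited intensity per probe set on a linear scale, and the submitters' processing notes name MAS5; its version and scaling target, and the genome build of the array design, are not given in the sources used here. Array medians differed 1.76-fold, so values were quantile-normalized and taken as log2(signal + 16). Tests leave out 64 control probe sets, and a probe set had to exceed the 40th percentile of its array on at least 3 arrays. R 4.3.3 with limma 3.58.1 (lmFit, eBayes with a variance trend) fitted 1 mean per population across all tested probe sets, with Benjamini-Hochberg adjustment. The fit was also tested on simulated data, but these held no arrays like those in doubt, so that test does not bear on them. Figures were drawn with Python 3.11.15 and matplotlib 3.10.9.

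Groups are those of the titles. Nothing states that the replicates were planted separately. The p-values therefore weigh differences only against the spread among these samples, which may be technical. The 4 genes, gene lists and alternatives, the fit without both arrays in doubt included, were chosen with earlier results of these data known. Alternatives run on the 13 arrays were added after seeing the data. Named are the 4 genes, the 5 genes most like each, and every member of the pathway lists with a probe set; population markers are named as a check of the labels. GEO's platform annotation gave the gene names, updated through RefSeq's table for TAIR10.1. Of 22810 probe sets, 13513 had 1 symbol, 503 had several and 8794 are unnamed here. SGN3 was matched under its other name, GSO1. Whether the PHV probe set also detects close relatives was not tested. Detection calls and sequences were not used here. The number of arrays limits the precision.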

Additional observations from a re-analysis of the deposited data

How the results depend on the processing

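The deposited scaling, pseudocounts of 1 and 64, no filter, a filter at the 60th percentile, no variance trend, array weights, the replicate number as a block, leaving out each array in turn and leaving out both arrays in doubt were tried. On the 13 arrays the same alternatives, chosen after seeing the data, kept all 4 genes past the F test wherever they were tested (83 fits, adjusted p at most 2.04e-05). Low signal limits PHV in the cortex, BBM in the cortex and epidermis, and LBD16 in the epidermis, where the pseudocount sets the size of a difference. The cause of the changes below was not tested, apart from the 2 arrays left out. Array weights and leaving out both arrays in doubt gave a limma F adjusted p of 2.34e-05 and 1.6e-08 for PHV, 4.51e-05 and 2.09e-07 for BBM, and 9.7e-07 and 1.81e-08 for LBD16. Array weights gave log2 differences from the other 4 populations, in place of the values on 15 arrays, of -0.88 for PHV, -0.10 for LHW, -1.39 for BBM and -2.50 for LBD16 in the epidermis, 2.60 for PHV, 2.19 for BBM and 0.54 for LBD16 in the stele, -0.17 for PHV and 1.81 for LBD16 in the endodermis, and -1.07 and 1.22 for LBD16 in the columella and cortex. Leaving out both gave -1.31, -0.32, -1.78 and -2.73 in the epidermis, 2.97, 2.41 and 0.86 in the stele, -0.064 and 1.61 in the endodermis, and -1.02 and 1.29 in the columella and cortex. Epidermis minus endodermis turned for PHV (-0.57 and -0.997), and epidermis minus cortex for BBM (-0.13 without both). With a pseudocount of 64 the cortex differences of PHV (-1.39) and BBM (-0.91) no longer passed, that of PHV in the endodermis was -0.22, and columella minus epidermis of LBD16 was -0.18. Columella minus stele of PHV was 0.19 with a pseudocount of 1. No filter ended the BBM cortex call (-1.73). Deposited scaling gave -0.067 for PHV in the endodermis and 0.0019 for LBD16 in the stele. On the 13 arrays, PHV in the endodermis was 0.32 with a pseudocount of 1, and LBD16 cortex minus stele was -0.042 with the deposited scaling. Probe sets called in the epidermis, cortex and stele numbered 1144, 2863 and 1158 with a pseudocount of 64; array weights gave 3541 in the epidermis and 3448 in the stele, and leaving out both gave 3821 and 3805. Same-numbered replicates did not deviate together (median r -0.012 over 30 pairs, and 5 of 15 arrays closest to their own number). These deviations from population means included both arrays in doubt, so the check cannot tell whether the numbers pair the arrays. The replicate block took the F test of LBD16 to 0.0455 and changed no other F call. Leaving out 1 array at a time gave 1492 to 3370 calls in the epidermis and 1465 to 3229 in the stele. F adjusted p ran from 0.00259 to 0.287 for PHV, 0.00238 to 0.319 for BBM and 0.000145 to 0.132 for LBD16. Differences from the other populations ran for PHV from -0.94 to 0.93 in the epidermis, -2.80 to -2.12 in the cortex, -0.35 to 0.30 in the endodermis and 0.35 to 2.64 in the stele. For LHW they ran from -0.16 to 0.90 in the epidermis and 1.02 to 2.11 in the stele, and for BBM from -1.57 to 0.33 in the epidermis, -1.94 to -1.40 in the cortex and 0.81 to 2.08 in the stele. For LBD16 they ran from -2.55 to -0.56 in the epidermis, 0.96 to 1.47 in the cortex, 1.28 to 1.79 in the endodermis and -0.62 to 0.54 in the stele. Among pairs, PHV ran from -0.11 to 1.76 for columella minus epidermis, -1.64 to 0.65 for columella minus stele, -0.99 to 0.87 for epidermis minus endodermis and -2.18 to 0.12 for epidermis minus stele. LHW ran from -0.77 to 0.30 for epidermis minus endodermis. BBM ran from -0.16 to 1.73 for columella minus epidermis, -0.41 to 0.11 for columella minus endodermis and -0.13 to 1.78 for epidermis minus cortex, and LBD16 from -0.61 to 1.37 for columella minus epidermis. On the 13 arrays PHV in the endodermis ran from -0.27 to 0.10, LHW in the epidermis from -0.69 to 0.051 and BBM columella minus endodermis from -0.42 to 0.11.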
